A study of Homo sapiens with 6 samples.

Results

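SK-MES-1 is a human cell line derived from a squamous cell carcinoma of the lung. RNA sequencing of these cells was given for 6 libraries: 2 from each group, namely si1 and si2, in which KRT6A was targeted for knockdown, and the control NC. All cells were of the same line, the knockdown was transient, and the labels state neither the time of harvest nor the reagents behind the names si1, si2 and NC, nor whether replicates 1 and 2 were separate cultures, so that p-values may measure technical spread alone. The 8 genes described here, out of 58735 in the deposited table, were taken by name: the carboxypeptidase genes CPA4, CPA1, CPA5, CPD, CPE and CPM, the carboxypeptidase inhibitor gene LXN, and MEST, a neighbour of CPA4 on chromosome 7. CPA4 was chosen by its low FPKM in the si1 and si2 libraries against the NC libraries, and the others as its relatives, its inhibitor and its neighbour. The contrasts with NC are therefore given as descriptions of these members, with no test. KRT6A itself, the gene targeted by the knockdown, had 0 reads in each of the 6 libraries, so no knockdown could be seen in these data and the labels could not be checked on it.

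Metallocarboxypeptidases of the M14 family remove the last amino acid of a peptide or protein with the help of a zinc ion. The A-type enzymes, among them CPA1, CPA4 and CPA5, prefer hydrophobic ends and are secreted as inactive precursors, while CPD, CPE and CPM remove the basic residues lysine and arginine. Latexin, the product of LXN, is an endogenous inhibitor of the A-type enzymes. CPA1 is a digestive enzyme of the pancreas, CPE trims prohormones in secretory granules, CPD resides in the trans-Golgi network, and CPM is anchored to the cell surface, where it trims kinins, anaphylatoxins and growth factors. MEST, an imprinted gene that is expressed from the paternal allele, encodes a protein with the fold of a hydrolase.

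Among the tested members, the promoters of the 3 carboxypeptidase genes with the largest differences from NC on the log2(FPKM + 1) scale show how unlike they are in sequence. Each runs from 250 bases before to 50 bases after the RefSeq transcription start (GRCh38.p14), 5′ to 3′ on the strand of the gene. Capitals mark matches, on either strand, to 3 motifs that were picked after the CPA4 sequence had been read. They are the AP-1 motif TGACTCA, recognised by Fos and Jun factors, the TEAD motif GGAATG, recognised by partners of YAP, and the TATA box TATAAA, recognised by a general initiation factor. The windows are chr7:130292911-130293210 on the plus strand for CPA4, chr12:68933150-68933449 on the minus strand for CPM and chr4:165378758-165379057 on the plus strand for CPE.
CPA4: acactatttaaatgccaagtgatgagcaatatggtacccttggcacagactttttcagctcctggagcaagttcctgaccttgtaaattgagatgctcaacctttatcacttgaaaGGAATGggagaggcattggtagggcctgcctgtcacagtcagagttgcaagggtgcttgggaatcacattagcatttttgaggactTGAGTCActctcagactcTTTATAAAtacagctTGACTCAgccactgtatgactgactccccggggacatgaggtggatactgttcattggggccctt
CPM: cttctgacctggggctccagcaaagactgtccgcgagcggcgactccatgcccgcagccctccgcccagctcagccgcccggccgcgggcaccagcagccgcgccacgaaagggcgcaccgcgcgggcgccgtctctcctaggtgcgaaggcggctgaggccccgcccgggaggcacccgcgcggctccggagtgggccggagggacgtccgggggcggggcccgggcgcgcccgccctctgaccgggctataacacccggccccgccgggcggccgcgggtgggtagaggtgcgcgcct
CPE: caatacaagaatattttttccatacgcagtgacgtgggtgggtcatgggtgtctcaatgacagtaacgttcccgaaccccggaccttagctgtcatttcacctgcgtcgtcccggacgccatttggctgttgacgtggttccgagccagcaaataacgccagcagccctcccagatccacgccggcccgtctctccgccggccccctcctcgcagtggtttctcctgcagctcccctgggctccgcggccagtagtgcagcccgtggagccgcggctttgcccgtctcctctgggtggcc

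The CPA4 window held the AP-1 letters at 2 places, on the strand of the gene from base -15 to -9 before the start and on the other strand from -48 to -42. It also held the TEAD letters from -134 to -129 and the TATA box from -28 to -23, which overlaps a match on the other strand from -30 to -25. The AP-1 letters lie in 4.95% of the 35116 promoter windows of the table, the TEAD letters in 4928 of them and the TATA box in 11.5%. All 3 together lie in 0.134% of the windows, and AP-1 letters at 2 or more places in 0.222%. Since the motifs were picked after the CPA4 sequence had been read, these shares are no test of CPA4. CPA4 had 46.3% G and C and 1 CpG, against 78.7% and 44 CpGs for CPM and 62.0% and 24 CpGs for CPE, with a median of 58.7% G and C over all windows. Of the 8 genes, 7 had a window in the table (all but CPA5). CPM had 3 annotated starts there, MEST 5 and CPD 2, of which 1 window each is described here. That of CPM is shown. The CPA4, CPM and CPE starts shown all lie inside the genes as the deposited annotation bounds them, CPA4 from 130293134. The motif positions are counted from the RefSeq start alone. LXN held a TATA box from -213 to -208, and the windows described for CPA1, CPD, CPE, CPM and MEST matched none of the motifs. The other starts of CPD, CPM and MEST are not covered by this. Letters alone do not show binding.

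Values are FPKM as deposited, normalised by the authors for gene length and library size. Levels can be compared between genes only as far as that length holds. For CPM and MEST it equals the bases of all annotated exons, and the length of the expressed transcripts was not tested. Reads behind them, recovered from FPKM and gene length, came to 14948607 to 17401392 per library. CPA4 (ENSG00000128510, chr7:130293134-130324180, plus strand, hg38) was at 0.958 and 0.418 FPKM in the si1 libraries, 1.41 and 1.09 FPKM in the si2 libraries, and 8.03 and 8.16 FPKM in the NC libraries. Every si1 and si2 library lay far below both NC libraries, and si1 replicate 2 was the lowest. These levels rested on 62 and 28 reads in si1, 88 and 65 in si2, and 531 and 567 in NC. The mean was 8.50% of that of NC in si1 and 15.4% in si2. On the log2(FPKM + 1) scale used for the fit, which understates changes at low levels, the difference from NC was −2.45 in si1 (SE 0.170) and −2.02 in si2 (SE 0.170), or −2.23 for both groups together. Among the 12319 genes that averaged 1 FPKM or more over the 6 libraries, CPA4 held rank 3 from the lowest in si1 and rank 13 in si2. The comparisons of si1 and si2 with NC share both NC libraries. In bulk libraries, fewer cells that express a gene and less of its RNA per cell cannot be told apart.

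Whether the 2 knockdown groups differed in CPA4 was a separate question. The choice of the gene did not compare si2 with si1, but it used the same libraries and favoured low values in both groups. CPA4 also passed the minimum mean of 1 FPKM only through its NC level. Both points limit what the test below shows. CPA4 averaged 1.25 ± 0.227 FPKM in si2 and 0.688 ± 0.382 FPKM in si1 (SD, n = 2 each). The difference was 0.43 log2 units (SE 0.170), and it missed the threshold of 0.05 (limma, Benjamini-Hochberg adjusted p = 0.0877). The groups did not overlap, but the 2 si1 libraries lay 0.540 FPKM apart, close to the 0.559 FPKM between the group means. Without si1 replicate 1 the difference was 0.66 (adjusted p = 0.0205) and without si1 replicate 2 it was 0.19 (adjusted p = 0.316). limma voom on the recovered reads gave 0.96 (adjusted p = 0.031), and over the 12 alternatives the adjusted p ran from 0.0205 to 0.316.

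**Figure D1:**
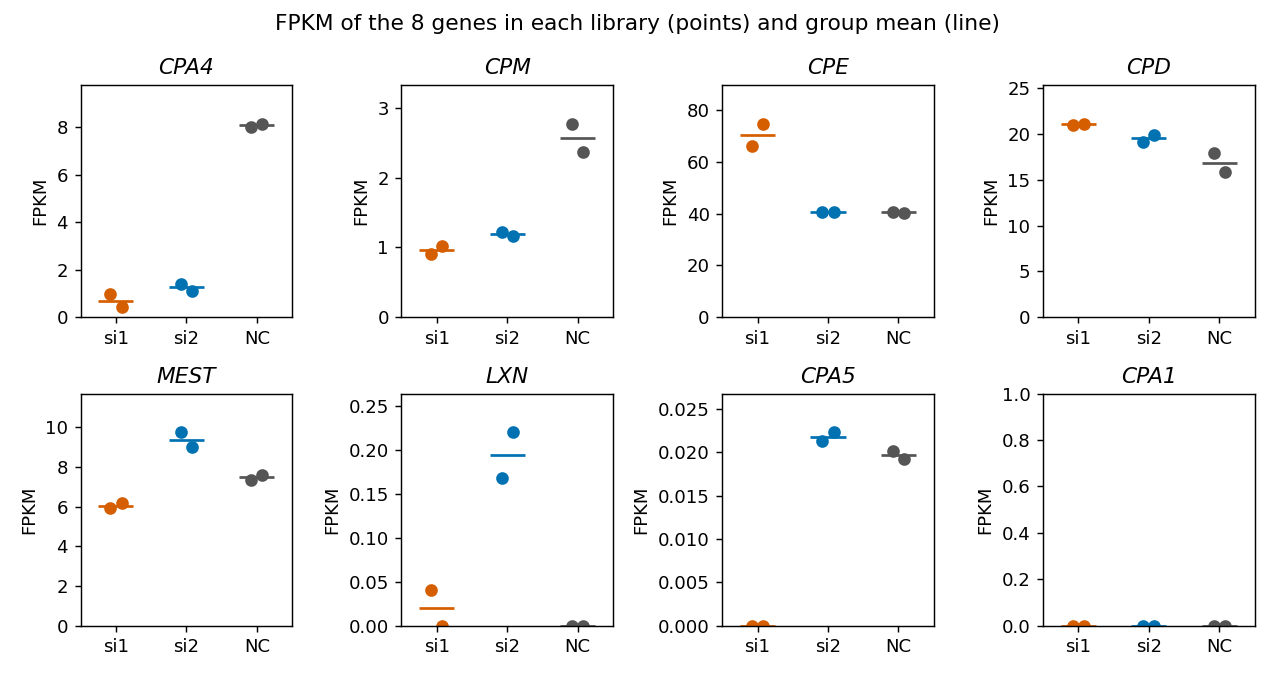
FPKM of the 8 genes in each library, with groups on the horizontal axis, 2 points per group and a line at the group mean; each panel has its own vertical axis from 0. CPA4 and CPM were lower in all si1 and si2 libraries than in NC, CPE was higher in si1 than in both other groups, and LXN, CPA5 and CPA1 were at or near 0.

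CPM (ENSG00000135678, chr12:68842197-68971570, minus strand), the cell-surface enzyme for basic residues, stood in the same order as CPA4 at smaller distances. It had 0.901 and 1.02 FPKM in si1, 1.23 and 1.16 FPKM in si2, and 2.78 and 2.37 FPKM in NC. The si1 libraries were lowest, the si2 libraries lay above them, and neither overlapped with NC. The means were 37.3% of that of NC in si1 and 46.3% in si2, and the differences on the log2(FPKM + 1) scale were −0.87 (SE 0.134) and −0.70 (SE 0.134). Between si2 and si1 the difference was 0.16 (SE 0.134, adjusted p = 0.377). The 4 knockdown libraries averaged 1.08 FPKM for CPM and 0.968 FPKM for CPA4, so that CPA4 reached the minimum mean of 1 FPKM only through its NC level. In 133 of its 7535 exonic bases CPM overlaps MDM2 on the opposite strand (mean 4.13 FPKM), and whether the authors counted by strand was not given in the sources used here.

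CPE (ENSG00000109472, chr4:165361194-165498320, plus strand), the prohormone-processing enzyme, had the highest level of the 8 genes. It was at 66.1 and 74.8 FPKM in si1, 40.8 and 40.5 FPKM in si2, and 40.8 and 40.4 FPKM in NC. Both si1 libraries lay above all others, while the si2 and NC libraries covered almost the same range. The mean in si1 was 173.6% of that of NC and the mean in si2 100.1%, and the differences from NC on the log2(FPKM + 1) scale were 0.78 (SE 0.0718) and 0.0021 (SE 0.0718). The difference between si2 and si1 was itself past the threshold, at −0.78 (SE 0.0718, adjusted p = 3.68e-04), and it stayed past it in each of the 12 alternatives (−0.87 to −0.69). Levels rested on 1811 to 3747 reads per library.

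CPD (ENSG00000108582, chr17:30378905-30469989, plus strand), the enzyme of the trans-Golgi network, was at 21.0 and 21.2 FPKM in si1, 19.2 and 19.9 FPKM in si2, and 17.9 and 15.9 FPKM in NC. The 4 knockdown libraries were above both NC libraries, by 1.31 FPKM at the nearest. The differences from NC were 0.31 in si1 (SE 0.0757) and 0.20 in si2 (SE 0.0757) on the log2(FPKM + 1) scale. Without NC replicate 2 they were 0.23 and 0.12. The si2 and si1 groups differed by −0.11 (SE 0.0757, adjusted p = 0.308).

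LXN (ENSG00000079257, chr3:158645822-158672693, minus strand), the inhibitor gene, had 1 and 0 reads in si1, 4 and 5 reads in si2, and 0 reads in both NC libraries. That is 0.0407 and 0 FPKM in si1, 0.168 and 0.220 FPKM in si2, and 0 in NC, where no read means a level under about 0.119 and 0.114 FPKM (3 reads). The 2 si2 libraries lay above these limits, on 9 reads in all. LXN lies within GFM1, a gene on the opposite strand at a mean of 7.19 FPKM, and shares 45 of its 1504 exonic bases with it. The part of GFM1 reads in the LXN count was not tested. CPA5 had 0 reads in si1, 1 read in each si2 library and 1 in each NC library, or at most 0.0223 FPKM. CPA1 had 0 reads in all 6 libraries, which allows up to 0.0607 to 0.0679 FPKM in the knockdown libraries and up to 0.0585 and 0.0615 FPKM in NC. These limits cover counting error only. None of the 3 genes reached the minimum for the test.

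The order of levels thus differed between groups. In NC it ran CPE, CPD, CPA4, MEST and CPM, with each gene's 2 libraries clear of the next gene's. In si1 and in si2 it ran CPE, CPD and MEST, and CPA4 and CPM came last with overlapping ranges. MEST had more reads than CPA4 in NC (589 and 639 against 531 and 567), so its place below CPA4 there rests on the gene lengths. The ratio of CPA4 to CPM was 1.06 and 0.410 in si1, 1.15 and 0.937 in si2, and 2.89 and 3.44 in NC. The ratio of CPE to CPA4 was 69.0 and 179.1 in si1, 28.98 and 37.3 in si2, and 5.08 and 4.95 in NC. In the fit over all genes, 5 of the 5 members tested were past the threshold in si1 against NC, where 22.4% of all genes were, 3 of 5 in si2 against NC (29.0%) and 4 of 5 for si1 and si2 together against NC (20.5%). Since these contrasts helped to choose the members, nothing is read from those counts. In si2 against si1, 2 of 5 were past it, CPE and MEST, where 38.5% of all genes were.

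**Figure D2:**
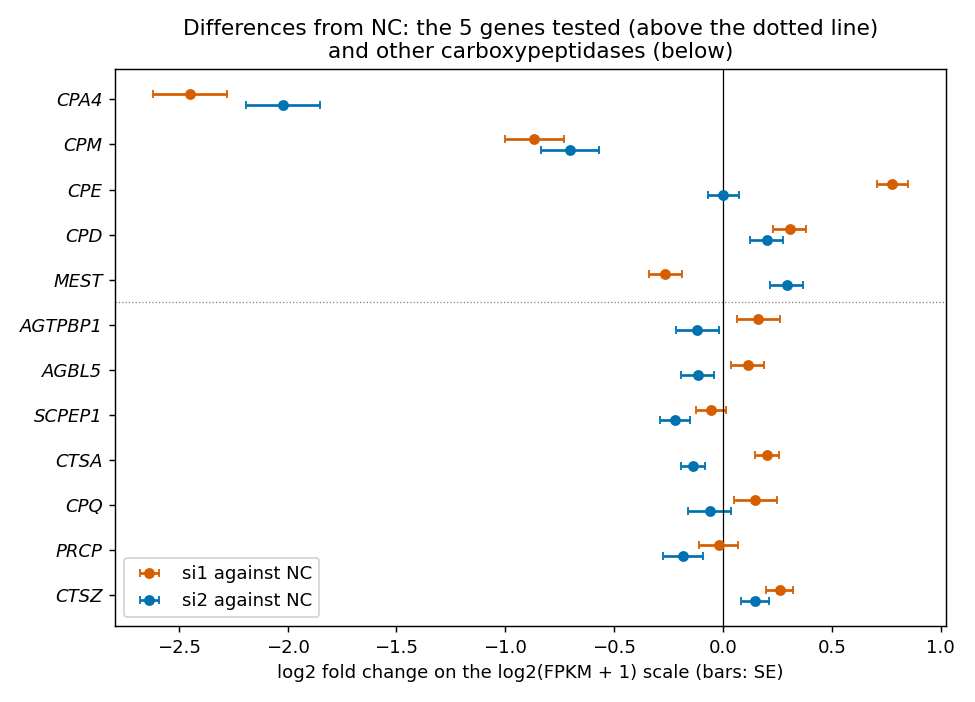
Differences from NC on the log2(FPKM + 1) scale (horizontal axis) for the 5 members tested and 7 other carboxypeptidase genes; points are estimates for si1 and si2, bars their SE. CPA4 and CPM lay to the left in both groups, CPE lay to the right in si1 and at 0 in si2, and the genes under the dotted line stayed between −0.22 and 0.26.

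Over the whole M14 family of 23 genes in the table, 6 genes reached a mean of 1 FPKM and 7 had 0 reads in every library. Their FPKM summed to 105.1 and 114.6 in si1, 77.1 and 76.4 in si2, and 85.3 and 81.5 in NC, so the si1 libraries were highest and the si2 libraries lowest. CPE took 62.9% and 65.3% of the sum in si1, 52.9% and 53.0% in si2, and 47.8% and 49.6% in NC. CPA4 took 0.912% and 0.365% in si1, 1.83% and 1.42% in si2, and 9.41% and 10.01% in NC.

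**Figure D3:**
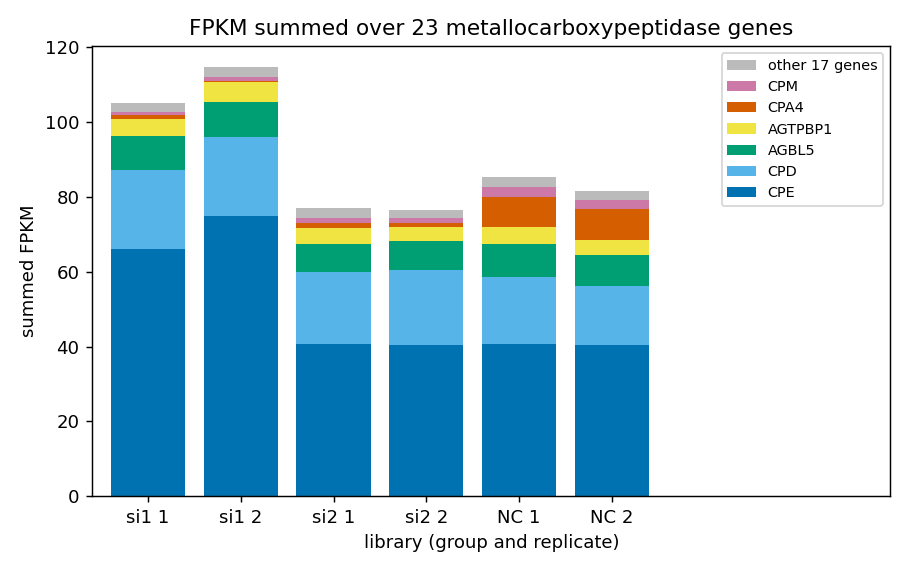
FPKM summed over the 23 M14 genes in each library (vertical axis), stacked by gene; each bar is 1 library. CPE makes up the largest part of each bar, and the CPA4 segment is clearly visible in the NC bars, at 9.41% and 10.01% of the sum, and thin in the knockdown bars.

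The other carboxypeptidases were listed by family, with earlier results of these data known, and their contrasts with NC were tested. Of 17 further M14 genes 2 were tested, AGBL5 and AGTPBP1, which remove glutamate residues from tubulin, and of 10 carboxypeptidases of other families 5 were tested. Across these 7 genes, 1 (CTSZ) was higher and 0 lower for si1 and si2 together against NC (all genes 8.73% higher and 11.8% lower), 2 higher and 0 lower in si1 (9.47% and 12.9%), and 0 and 0 in si2 (13.6% and 15.4%). CTSZ, a lysosomal carboxypeptidase of the cathepsin family, was at 93.3 and 88.5 FPKM in si1, 80.3 and 87.6 FPKM in si2, and 75.8 and 75.7 FPKM in NC, and rose by 0.26 in si1 (SE 0.0637, adjusted p = 0.0275). CTSA, a lysosomal serine carboxypeptidase, was at 79.5 and 76.9 FPKM in si1, 60.5 and 62.9 FPKM in si2, and 67.3 and 68.5 FPKM in NC, and rose by 0.20 in si1 (SE 0.0555, adjusted p = 0.0411). In si2 against si1, CTSA was lower (−0.34, SE 0.0555, adjusted p = 0.00352), as was AGBL5 (−0.23, SE 0.0758, adjusted p = 0.0494), while 0 of the 7 genes were higher (all genes 19.9% higher and 18.6% lower). The median of the 7 differences was 0.023 for both groups together, 0.15 in si1 and −0.12 in si2, against −0.01, −0.0071 and 0.0046 over all genes. At an unadjusted p under 0.05, 2 of the 7 genes differed in si2 against NC. The share of all genes at that level is not given here, but 29.0% were past even the adjusted threshold. With limma voom 1 of the 7 was called, and 4474 of the 12319 genes tested. The call of CTSZ in si1 was kept in 7 of 12 alternatives (adjusted p 0.00675 to 0.138) and that of CTSA in 5 (0.0124 to 0.208), and both were lost without either NC library. The difference in CTSA between si2 and si1 was kept in all 12, and that in AGBL5 in 4 (0.0361 to 0.225). SCPEP1, a serine carboxypeptidase, had a difference of −0.22 in si2 against NC (SE 0.0690, adjusted p = 0.0528), which was past the threshold in 3 of 12 alternatives (0.0386 to 0.261).

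CPE acts in a route with proprotein convertases and their helpers. Of 11 genes of that route, listed with earlier results of these data known, 5 were tested. For both knockdown groups together 0 rose and 0 fell (all genes 8.73% higher and 11.8% lower), in si1 1 rose and 0 fell (9.47% and 12.9%), and in si2 1 rose and 2 fell (13.6% and 15.4%). FURIN, the convertase of the trans-Golgi network, was at 29.9 and 25.8 FPKM in si1, 41.1 and 40.8 FPKM in si2, and 30.5 and 31.4 FPKM in NC, and rose in si2 by 0.39 (SE 0.0792, adjusted p = 0.0119). PCSK1N, which encodes a convertase inhibitor, fell by 0.50 in si2 (SE 0.128, adjusted p = 0.0274), and PCSK6, another convertase, fell by 0.40 (SE 0.123, adjusted p = 0.0491). SCG5, a chaperone of a granule convertase, was the 1 gene that rose in si1 (0.45, SE 0.131, adjusted p = 0.0489). Between the groups FURIN was higher in si2 (0.54, SE 0.0792, adjusted p = 0.00221), and PCSK1N was lower (−0.56, SE 0.128, adjusted p = 0.0135), 2 of the 5 genes, where 38.5% of all genes were past the threshold. The FURIN difference between the groups was kept in all 12 alternatives and that of PCSK1N in 9. Against NC, the calls were kept in 7 of 12 for FURIN, 6 for PCSK1N, 3 for PCSK6 and 5 for SCG5, and each was lost without either NC library. For both groups together, 2 of the 5 genes had an unadjusted p under 0.05. The share of all genes at that level is not given here, but 20.5% were past even the adjusted threshold. With limma voom 1 of the 5 was called, and 3539 of the 12319 genes tested. The convertases of endocrine granules were low, with at most 12 reads for PCSK1 in any library and 0 for PCSK2. The listed markers of neuroendocrine cells summed to 0.8575 to 1.245 FPKM in si1, 0.9351 to 1.207 in si2 and 0.7497 to 0.8196 in NC. SCG2 made up most of these sums, at 0.704 to 1.17 FPKM on 32 to 54 reads per library, while INSM1 had 0 reads.

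RARRES1, whose product resembles latexin and whose gene lies beside LXN on chromosome 3 (chr3:158696892-158732696), was at 16.5 and 18.9 FPKM in si1, 8.66 and 7.37 FPKM in si2, and 9.37 and 8.51 FPKM in NC. The si1 libraries stood apart from the rest, and the si2 and NC ranges overlapped. The gene was listed with earlier results of these data known, which limits what its p-values show. RARRES1 rose by 0.91 in si1 (SE 0.105, adjusted p = 0.00157) and was lower in si2 than in si1 (−1.06, SE 0.105, adjusted p = 4.77e-04), in all 12 alternatives each. It shares 331 of its 2236 exonic bases with MFSD1 on the opposite strand, which had a mean of 21.3 FPKM.

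Among the genes for known CPM substrates and their receptors, the kininogen gene KNG1 had 0 reads and the kinin receptor genes BDKRB1 and BDKRB2 had 1 and 21 reads in all. C3, the source of an anaphylatoxin, was at 27.2 and 22.3 FPKM in si1, 10.3 and 9.29 FPKM in si2, and 9.90 and 11.4 FPKM in NC, and both si1 libraries lay above the rest, while the si2 and NC ranges overlapped. C5 lay between 2.15 and 2.61 FPKM in all libraries. The anaphylatoxin receptor genes C3AR1 and C5AR1 had 45 and 96 reads in all, or at most 0.432 and 0.441 FPKM in any library.

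CPA4 lies near CPA5 and CPA1 on the same strand, and MEST follows 193 kb from its start. Of the 30 further genes within 500 kb, 6 were tested. For both knockdown groups together 1 rose and 0 fell (8.73% and 11.8% of all genes), in si1 0 rose and 1 fell (9.47% and 12.9%), and in si2 2 rose and 0 fell (13.6% and 15.4%). MEST (ENSG00000106484, chr7:130486171-130506465, plus strand) was at 5.92 and 6.19 FPKM in si1, 9.75 and 9.01 FPKM in si2, and 7.35 and 7.59 FPKM in NC. The si1 libraries were below and the si2 libraries above NC, without overlap, and the differences from NC were −0.26 (SE 0.0767) and 0.29 (SE 0.0767). Against si1, MEST was higher in si2 (0.56, SE 0.0767, adjusted p = 0.00176), and this held in each of the 12 alternatives (0.51 to 0.62). Its end shares 228 of 4794 exonic bases with COPG2 on the opposite strand (mean 7.61 FPKM).

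UBE2H, a ubiquitin-conjugating enzyme, was at 26.8 and 26.7 FPKM in si1, 41.3 and 41.7 FPKM in si2, and 26.8 and 29.2 FPKM in NC, and rose in si2 by 0.55 (SE 0.0653, adjusted p = 0.00157). KLHDC10 rose in si2 by 0.31 (SE 0.0926, adjusted p = 0.0461). TMEM209, a protein of the nuclear envelope, was at 5.01 and 5.79 FPKM in si1, 9.47 and 9.31 FPKM in si2, and 6.78 and 8.03 FPKM in NC, and fell by 0.39 in si1 (SE 0.102, adjusted p = 0.0336). UBE2H, TMEM209 and CEP41, a centrosomal protein, were higher in si2 than in si1, by 0.62 (adjusted p = 6.21e-04), 0.70 (adjusted p = 0.00215) and 0.41 (adjusted p = 0.0369), 3 of the 6 neighbours, where 19.9% of all genes were higher. UBE2H was also the gene called for both groups together (0.24, SE 0.0566, adjusted p = 0.0251), in 7 of 13 alternatives (0.00321 to 0.689). Its calls in si2, against NC and against si1, were kept in all 12 alternatives, as was that of TMEM209 between si2 and si1, and the others in 6 (KLHDC10, and TMEM209 in si1) or 4 (CEP41), KLHDC10 and TMEM209 being lost without either NC library. ZC3HC1 passed in no contrast. COPG2 did not pass either (0.38 in si1, SE 0.113, adjusted p = 0.0524), but did so in si1 in 4 of 12 alternatives (0.00755 to 0.246) and for both groups together in 1 of 13. The 6 neighbours had a median difference of −0.11 in si1 and 0.26 in si2, against −0.0071 and 0.0046 over all genes.

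**Figure D4:**
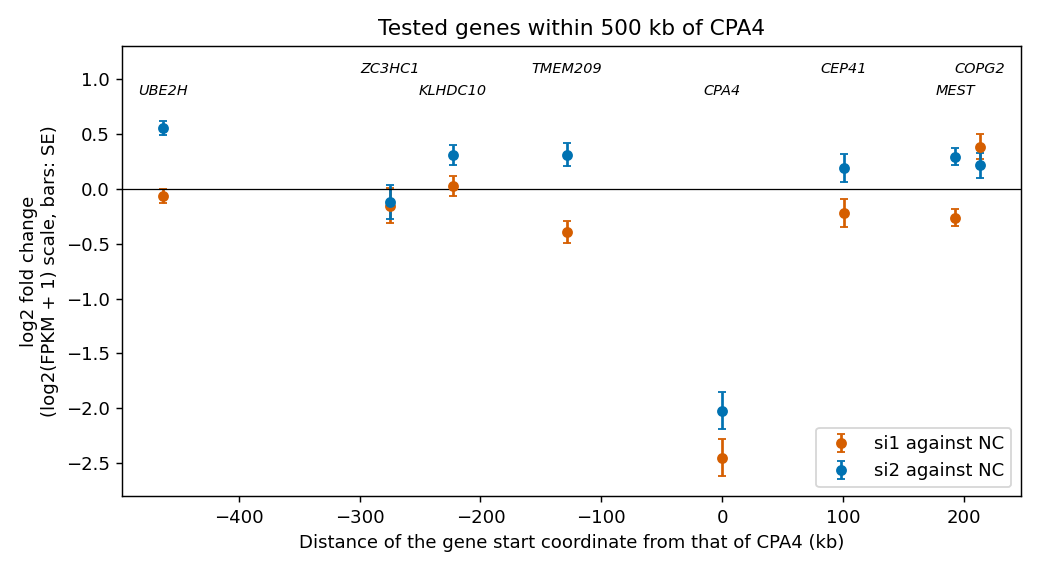
Differences from NC on the log2(FPKM + 1) scale (vertical axis) of the 8 tested genes within 500 kb of CPA4, against the distance of their start coordinate from that of CPA4 in kb; points are estimates for si1 and si2, bars their SE. CPA4 lies at −2.45 and −2.02, and the other 7 genes between −0.39 and 0.55.

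The 5 protein-coding genes whose profile lay nearest to that of CPA4 were found by Euclidean distance over the 6 libraries between log2(FPKM + 1) values centred on the NC mean, among 10761 genes. They were SLC35F3, a solute carrier (distance 1.305), MYEOV (1.63), the receptor tyrosine kinase gene AXL (1.87), ANKRD1, a cofactor and target of YAP (1.90), and SPOCK1, a secreted proteoglycan (2.06). The distance of CPA4 from a flat profile was 4.50, so the likeness is partial. SPOCK1 was at 7.53 and 7.82 FPKM in si1, 9.75 and 9.23 FPKM in si2, and 21.1 and 21.4 FPKM in NC. SLC35F3 was at 5.15 and 5.71 FPKM in si1, 4.89 and 4.43 FPKM in si2, and 19.2 and 17.9 FPKM in NC. The choice depended on the pseudocount: with 0.1 FPKM in place of 1, 2 of the 5 were kept, SLC35F3 and MYEOV, and with 0.5 FPKM 3 were kept. Leaving out a library kept 3 or 4.

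**Figure D5:**
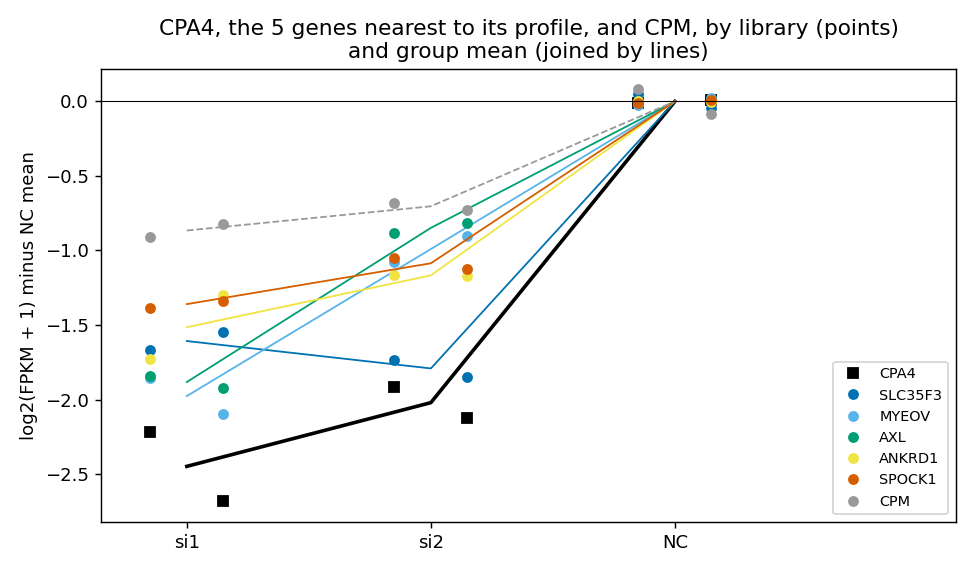
log2(FPKM + 1) minus its NC mean (vertical axis) by group for CPA4 (squares), its 5 nearest genes (circles) and CPM (dashed); points are libraries and lines join group means. CPA4 lies lowest in all 4 knockdown libraries.

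As a check of the cell type, of the 4 epithelial markers EPCAM, KRT8 and KRT18 were at 1 FPKM or more, while CDH1 was low, at 0.118 to 0.256 FPKM in the si1 and si2 libraries and 0.0387 and 0.0461 FPKM in NC. Of the 5 squamous markers TP63, KRT5, KRT14, SOX2 and DSG3 only TP63 was, with DSG3 at 0 reads. The squamous markers summed to 5.578 to 6.002 FPKM in si1, 11.69 to 13.88 in si2 and 6.020 to 6.692 in NC. Markers of pancreatic acinar cells, where CPA1 is abundant, summed to at most 0.0999 FPKM, and those of mast cells to at most 0.0983 FPKM. Those of lung adenocarcinoma summed to at most 0.1847 FPKM and those of endothelial cells to at most 0.4411 FPKM. Other lists were not as low. Leukocyte markers summed to 0.7372 to 1.707 FPKM, and CD14 among them had a mean of 1.17 FPKM. Fibroblast markers summed to 0.8539 to 1.78 FPKM, with LUM at 1.33 FPKM in si2 replicate 1.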

How the data were processed

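Bulk RNA sequencing was given as 1 table of FPKM for 6 libraries. Per the labels and the submitters' processing notes the build was hg38, and no source used here names the aligner, the counter or the annotation. The authors deposited FPKM, that is, values already scaled for gene length and library size, for 58735 genes. All 58735 have the start and end of GENCODE 29. Values times gene length were whole multiples of a constant in each library, which gave back the reads, with 100% of the values whole within 0.001 reads (14948607 to 17401392 per library). The 8 members were taken by gene name, and the members and lists were chosen with earlier results of these data known. Columns of unmapped samples numbered 0.

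The 12319 genes averaging 1 FPKM or more were fitted with limma 3.58.1 in R 4.3.3 on log2(FPKM + 1), with 1 coefficient per group, trended moderated variance over all 6 libraries and Benjamini-Hochberg adjustment over all 12319 genes, threshold 0.05. The script was tested on simulated data. A count of 0 was given an upper limit of 3 reads, which covers counting error only. The text names all 8 members, of each list up to 4 genes with the largest change for si1 and si2 together and those past the threshold, all tested protein-coding neighbours within 500 kb, the 5 nearest profiles, KRT6A, RARRES1 and the kinin and anaphylatoxin genes. Alternatives were other pseudocounts, no filter, median-of-ratios scaling, a replicate block, each library left out, si1 and si2 as 1 group and, added after the data were seen, limma voom on the recovered reads. Sequences are from RefSeq (GRCh38.p14).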

Additional observations from a re-analysis of the deposited data

Results flagged for a closer look

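For 10 of the 24 genes tested among the members, lists, neighbours and RARRES1, the effects of the 2 knockdown groups differed by a test of the difference itself, si2 against si1 on the log2(FPKM + 1) scale, with adjusted p from limma. Lower in si2 were RARRES1 (−1.06), CPE (−0.78), PCSK1N (−0.56), CTSA (−0.34) and AGBL5 (−0.23). Higher in si2 were TMEM209 (0.70), UBE2H (0.62), MEST (0.56), FURIN (0.54) and CEP41 (0.41). That is 41.7% of them, near the 38.5% of all genes tested that were past the threshold in this contrast. The differences of RARRES1, CPE, CTSA, TMEM209, UBE2H, MEST and FURIN were kept in all 12 alternatives, that of PCSK1N in 9, and those of AGBL5 and CEP41 in 4 each.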

How the results depend on the processing

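The differences of CPA4 from NC kept their direction in every alternative and grew as the pseudocount shrank. With 0.1 FPKM they were −3.04 for si1 and si2 together, −3.47 in si1 and −2.62 in si2, with 0.5 FPKM −2.60, −2.89 and −2.30, and with limma voom on recovered reads −3.18, −3.66 and −2.70. Without 1 library at a time they ran from −2.35 to −2.12, −2.68 to −2.21 and −2.12 to −1.92. In si2 against si1, CPA4 ran from 0.19 to 0.66 without 1 library and was 0.96 (adjusted p = 0.031) with voom. Fewer genes were called over all genes without the filter (1127 together, 1414 in si1, 1785 in si2 and 3130 in si2 against si1). That fit covered 29572 genes in place of 12319, and more genes of each list. With si1 and si2 as 1 group of 4, 84 genes were called. With voom 3539, 3743, 4474 and 5477 genes were called. Counts without 1 library ran from 701 to 2844, 1114 to 2443, 1490 to 4047 and 2973 to 4367. Of the other carboxypeptidases, 0 were called together with the replicate block or with 1 group of 4. In si1, 1 was called without the filter and 0 with the block, and in si2, 1 without the filter, with median-of-ratios scaling or with voom. The 1 gene called without the filter together, in si1 and in si2 was CPO, which was below the minimum for the main fit. Neither CTSZ nor CTSA was called in those contrasts. CPO was picked out after its values were seen, so nothing is read from its calls. In si2 against si1, 1 was called without the filter or with the block. Without 1 library these counts ran from 0 to 1, 0 to 2, 0 to 1 and 1 to 1. Of the peptide processing genes, 1 was called together with voom, 0 in si1 without the filter or with the block, 0 in si2 without the filter, and in si2 against si1 1 without the filter and 4 with voom, and without 1 library 0 to 2, 0 to 2, 0 to 2 and 1 to 4. Of the neighbours, 0 were called together without the filter or with 1 group of 4 and 2 with voom, in si1 0 without the filter and 2 with scaling or voom, in si2 1 without the filter or with the block, and without 1 library 0 to 1, 0 to 1, 1 to 3 and 2 to 3. The cause of these changes was not tested. For single genes without CPA4, together with the number of nearest genes kept, 966 values were labelled the same, 90 weaker, 26 stronger, 30 moved and 24 turned. In tested contrasts, the same meant an unchanged direction and side of the threshold. In contrasts of members with NC it meant a move smaller than the gene's SD within groups, whatever the sign. Thus MEST together (−0.012 to 0.040 without 1 library) and CPE in si2 (−0.0041 to 0.0083) crossed 0 but were not counted as turned. Among the values that turned, AGBL5 for both groups together was 0.0068 with scaling and 0.0076 with voom, and without 1 library ran from −0.043 to 0.043, AGTPBP1 from −0.027 to 0.073, PAM from −0.047 to 0.029, TMEM209 from −0.15 to 0.067 and CEP41 from −0.076 to 0.044. In si1, PRCP ran from −0.12 to 0.077, PCSK1N from −0.12 to 0.24, ZC3HC1 from −0.35 to 0.039 and KLHDC10 from −0.052 to 0.11. In si2, CPQ ran from −0.15 to 0.022 and ZC3HC1 from −0.28 to 0.041, and ZC3HC1 in si2 against si1 from −0.16 to 0.23. The replicate numbers did not pair the libraries (r of replicate differences −0.052, 0.0503 and −0.0577). With the replicate block 2058, 2335, 3121 and 4314 genes were called over all genes, and CPA4 in si2 against si1 had an adjusted p of 0.0694. Leaving out a library assumes that the lone sample varies like the other groups. The planned edgeR and DESeq2 fits were not run, and limma voom was the alternative tried on the recovered reads. With 2 libraries per group, small differences in genes below 1 FPKM could not be resolved.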

Other observations

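CPO, which encodes a carboxypeptidase known from the human intestine, was chosen after its values were seen. CPO (chr2:206939554-206969474, hg38) was at 0.556 and 0.733 FPKM in si1, 0.576 and 0.602 FPKM in si2, and 0.0495 and 0 FPKM in NC. All 4 knockdown libraries lay above both NC libraries, on 11 and 15 reads in si1, 11 and 11 in si2, and 1 and 0 in NC. CPO was below the minimum for the test. Without the filter its difference from NC was 0.68 in si1 (SE 0.103) and 0.63 in si2 (SE 0.103) on the log2(FPKM + 1) scale, given as a description with no test. AEBP1, a relative of the M14 enzymes that was likewise named after its values were seen and not tested, was at 0.827 and 0.942 FPKM in si1, 0.613 and 0.467 FPKM in si2, and 1.26 and 1.32 FPKM in NC.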
